A study of Mus musculus with 8 samples.

Results

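The genes described here are 10 that serve antigen presentation by CD1d and by class I molecules of the major histocompatibility complex, out of 25230 gene symbols in the count table. They were chosen by symbol: Cd1d1 and Cd1d2, the classical class I genes H2-K1 and H2-D1 with their light chain B2m, the nonclassical genes H2-T3, H2-T22 and H2-T23, the peptide transporter gene Tap1 and the class I transactivator gene Nlrc5. All 10 were present in the table and all 10 passed the filter on low counts. The choice was made with earlier results of these data known, in which Cd1d1 was among the genes called between the treatments, so the treatment comparison of these genes is given as a description. The cells were intraepithelial lymphocytes (IELs), lymphocytes lodged in the epithelial layer of the intestine. They came from C57BL/6J mice that had all been injected intraperitoneally with 35 µg of anti-CD3, an antibody that triggers T cells by way of the T cell receptor complex. In the Ex4 group 4 mice also received 10 nmol/kg of exendin-4, an agonist of the glucagon-like peptide 1 receptor, and in the PBS group 4 mice received phosphate-buffered saline, and gut cells were taken 3 hours later. Neither group went without anti-CD3, so resting levels of these genes are not known from these libraries. The age of the mice is not given in the sources used here.

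Class I molecules carry peptides to the cell surface for CD8 T cells. A heavy chain (H2-K1, H2-D1) folds with beta-2 microglobulin (B2m) in the endoplasmic reticulum, where the TAP transporter delivers peptides from the proteasome. NLRC5 drives transcription of class I genes, and interferon gamma induces many of them. CD1d has the same architecture and the same light chain but a hydrophobic groove that holds lipids, which it shows to natural killer T cells. Mice have a pair of CD1d genes side by side, and in C57BL/6 mice Cd1d2 carries a frameshift and gives no surface protein. In the gut, the nonclassical products meet receptors of IELs: the thymus leukaemia antigen encoded by H2-T3 binds CD8 alpha homodimers, Qa-1 encoded by H2-T23 binds the CD94-NKG2A receptor, and the product of H2-T22 is a ligand of some gamma delta T cell receptors.

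Total counts ran from 13386889 to 31843413 in the Ex4 libraries and from 18266449 to 25333644 in the PBS libraries. Values are in CPM, counts of a gene per 1e6 counts after TMM scaling between libraries, and values after ± are SDs over 4 mice. The lymphocyte label was checked on 12 markers of T cells and IELs, all counted in every library, with summed levels of 71350 to 85490 CPM in Ex4 and 55490 to 81230 CPM in PBS. The granzyme genes made up most of these sums. Gzma had means of 47150 CPM in Ex4 and 40770 CPM in PBS, and Gzmb 19410 CPM in Ex4 and 19240 CPM in PBS. The T cell receptor complex gene Cd3g had means of 2159 CPM in Ex4 and 1955 CPM in PBS. Markers of other cells were present at lower sums, with 11 of 11 B cell markers, 14 of 15 markers of macrophages, monocytes and dendritic cells and 19 of 19 epithelial markers counted in every library. Ex4 replicate 3 and PBS replicate 2 had the fewest genes when all libraries were thinned to 1 depth, with 16499 and 16177, while the other 6 libraries had 17548 to 19087.

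How far Cd1d1 and Cd1d2 can be told apart bears on their counts. Cd1d1 lies on the minus strand of chromosome 3 from 86995834 to 86999441, and Cd1d2, annotated as a polymorphic pseudogene, on the plus strand from 86986551 to 86989780 (GENCODE vM21, GRCm38, the assembly also called mm10). Their longest protein-coding transcripts were 96.6% identical over 1198 aligned bases, and 33 of 1005 aligned coding bases differed. The 90-base coding stretch with the most differences, 9 bases, is shown 5′ to 3′ with the differing bases in capitals, at chr3:86998221-86998310 for Cd1d1 and chr3:86987583-86987672 for Cd1d2, from the GENCODE transcripts.
Cd1d1: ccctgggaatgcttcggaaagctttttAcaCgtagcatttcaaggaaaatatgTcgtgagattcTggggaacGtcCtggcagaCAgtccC
Cd1d2: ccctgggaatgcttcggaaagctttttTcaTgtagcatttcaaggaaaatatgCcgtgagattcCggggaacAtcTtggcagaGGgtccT
Even in this stretch runs of identical bases separate the differences. Of all windows of 100 bases in the Cd1d1 transcript, 14.6% also occurred unchanged in Cd1d2, as did 2.63% of windows of 200 bases, the read length. In the other direction 23.3% of 100-base windows and 4.12% of 200-base windows of Cd1d2 occurred in Cd1d1. How the counting treated reads that fit both genes is not given in the sources used here, so the split between the pair is uncertain to that extent. The same check found 14.2% of 100-base windows shared for H2-T22, among others with H2-T10, 7.28% for H2-T23 and 4.64% for H2-D1. For H2-K1, B2m, H2-T3, Tap1 and Nlrc5 it found 0%.

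The comparison asked how exendin-4 altered gene expression in IELs activated through CD3. Cd1d1, whose product presents lipids, stood at 84.0, 70.0, 82.4 and 84.2 CPM in Ex4 replicates 1 to 4, against 38.6, 50.0, 35.6 and 35.8 CPM in PBS replicates 1 to 4. The lowest Ex4 library lay above the highest PBS library, with Ex4 replicate 2 lowest among the treated and PBS replicate 2 highest among the controls. The means were 80.2 ± 6.81 CPM in Ex4 and 40.0 ± 6.78 CPM in PBS, a log2 fold change of 1.00 (SE 0.14, 95% interval 0.69 to 1.31). It was the 1 gene of the 10 past the threshold of 0.05 (adjusted p = 0.0386, edgeR quasi-likelihood test with Benjamini-Hochberg adjustment over 14691 genes), where 0.0136% of all genes tested, or 2 genes, passed. Since that call led to the choice of Cd1d1, nothing is read from it here. In size the increase was less unusual, as 3.03% of genes tested, Cd1d1 included, had an increase at least as large on the log2 scale. Decreases of that size were not counted. The share takes no account of precision and includes low-count genes such as Cd1d2, whose log2 fold change had an SE of 0.64. Without Ex4 replicate 1, 2, 3 or 4 the adjusted p was 0.206, 0.104, 0.234 and 0.239, and without PBS replicate 1, 3 or 4 it was 0.108, 0.31 and 0.237, all from the edgeR test, while the log2 fold change stayed between 0.91 and 1.11 in all 8 omissions. The call held without PBS replicate 2 (adjusted p = 0.01, edgeR).

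Cd1d2 was counted at 28, 91, 107 and 18 reads in Ex4 replicates 1 to 4, against 36, 29, 5 and 16 reads in PBS replicates 1 to 4. In CPM this was 1.24, 3.42, 3.69 and 1.27 in Ex4, against 1.73, 1.20, 0.248 and 0.90 in PBS. Ex4 replicates 2 and 3 lay above all others, and Ex4 replicates 1 and 4 lay among the PBS libraries. The log2 fold change of 1.24 had an SE of 0.64, and its 95% interval of -0.13 to 2.61 holds both no difference and one larger than that of Cd1d1 (edgeR adjusted p = 0.686). Per 100 counts of Cd1d1 there were 1.48 to 4.89 counts of Cd1d2 in Ex4 and 0.696 to 4.48 in PBS. When the pair was summed to 1 feature, the log2 fold change was 1.01 (edgeR adjusted p = 0.0326). Ex4 replicates 1 and 4, at 84.0 and 84.2 CPM of Cd1d1, were not high in Cd1d2. Ex4 replicate 3, close to them at 82.4 CPM of Cd1d1, was the highest in Cd1d2.

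**Figure D1:**
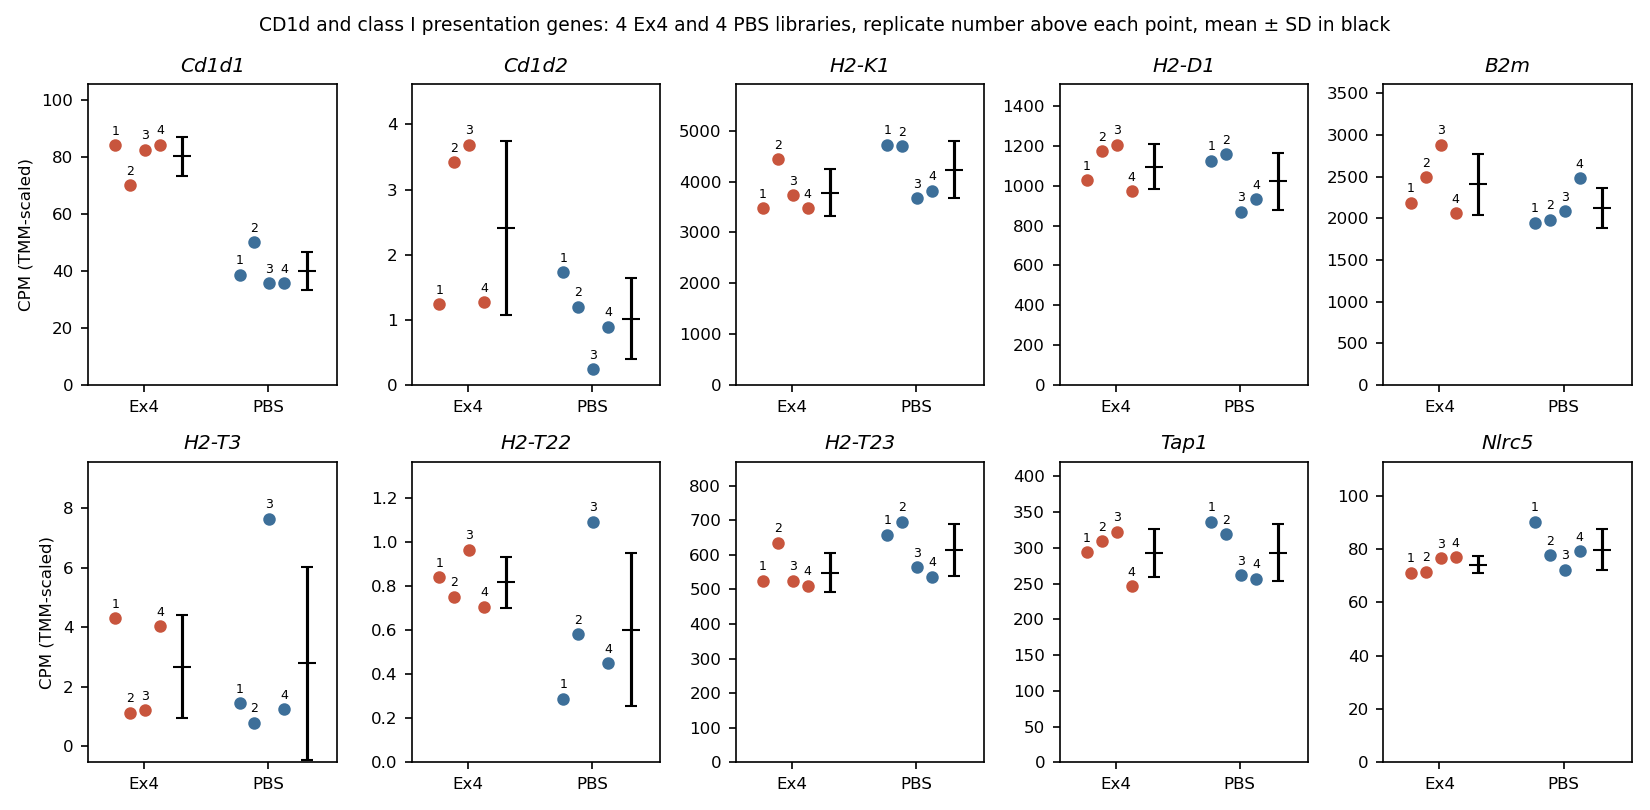
Level of each gene in every library, on a linear axis in CPM that starts at 0 (for H2-T3, lower, where the SD of the PBS libraries passes below 0). Red points are Ex4 and blue points PBS, the number above a point is the replicate, and the black bar is the mean ± SD of 4 mice. For Cd1d1 the lowest Ex4 library, at 70.0 CPM, lies above the highest PBS library, at 50.0 CPM, and for the other 9 genes the groups overlap.

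The classical class I genes were among the abundant transcripts of these cells. H2-K1, a heavy chain that shows peptides to CD8 T cells, stood at 3475, 4443, 3735 and 3481 CPM in Ex4, against 4725, 4696, 3669 and 3823 CPM in PBS. The groups overlapped, with PBS replicates 1 and 2 highest. Its log2 fold change was -0.16 (SE 0.15, 95% interval -0.48 to 0.16). H2-D1, the other classical heavy chain of this strain, stood at 1028, 1172, 1206 and 972.1 CPM in Ex4, against 1126, 1157, 869.5 and 933.5 CPM in PBS. Here Ex4 replicate 3 was highest and PBS replicate 3 lowest. The log2 fold change was 0.10 (SE 0.14, 95% interval -0.21 to 0.41), and -0.0099 without PBS replicate 3. B2m, the light chain that both the heavy chains and CD1d need, stood at 2190, 2494, 2886 and 2064 CPM in Ex4, against 1949, 1987, 2087 and 2480 CPM in PBS. Ex4 replicate 3 was highest, and PBS replicate 4 lay above 2 of the Ex4 libraries. Its log2 fold change was 0.18 (SE 0.15, 95% interval -0.14 to 0.50). None of the 3 genes passed the edgeR test (adjusted p from 0.843 to 0.929). Together these 3 genes took 0.686 to 0.805% of all counts in Ex4 and 0.68 to 0.832% in PBS.

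The nonclassical genes covered a wide range of levels. H2-T23, which encodes Qa-1, stood at 525.5, 634.4, 525.0 and 510.4 CPM in Ex4, against 658.0, 695.1, 564.2 and 536.1 CPM in PBS. The ranges overlapped, and PBS replicates 1 and 2 were again highest. Its log2 fold change was -0.16 (SE 0.14, 95% interval -0.45 to 0.13, edgeR adjusted p = 0.85). H2-T3, which encodes the thymus leukaemia antigen that gut epithelium displays, stood at 4.30, 1.13, 1.21 and 4.03 CPM in Ex4, against 1.44, 0.788, 7.64 and 1.24 CPM in PBS. PBS replicate 3 was highest, ahead of Ex4 replicates 1 and 4, and the other 5 libraries lay at 1.44 CPM or below. PBS replicate 3 also had the highest sum of epithelial markers, 1513 CPM, and Ex4 replicate 1 had the lowest, 344.5 CPM. The part of epithelial cells in the H2-T3 values was not tested. The log2 fold change of H2-T3 was -0.07 (SE 0.72) with all libraries, and 1.16 without PBS replicate 3 (edgeR adjusted p = 0.644). H2-T22 had 10 to 28 counts in Ex4 and 6 to 22 in PBS, or 0.708 to 0.966 CPM in Ex4 and 0.289 to 1.09 CPM in PBS. At this depth its 95% interval ran from -1.02 to 1.89 on the log2 scale, which holds changes in either direction.

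Tap1, a subunit of the peptide transporter, stood at 293.8, 309.5, 322.4 and 246.0 CPM in Ex4, against 336.2, 319.0, 261.3 and 256.9 CPM in PBS. The means of 292.9 ± 33.4 CPM in Ex4 and 293.3 ± 40.2 CPM in PBS differed by less than the spread between mice, with a log2 fold change of -0.0018 (95% interval -0.30 to 0.30). Nlrc5, the transactivator of class I genes, stood at 71.2, 71.5, 76.7 and 77.0 CPM in Ex4, against 90.2, 77.7, 72.2 and 79.1 CPM in PBS. Relative to its mean it had the smallest SD of the 10 genes in both groups, and PBS replicate 1 was highest. The log2 fold change was -0.11 (SE 0.12, 95% interval -0.37 to 0.15).

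Over the 10 genes the median log2 fold change was 0.05, with 5 above 0 and 5 below, beside 0.02 over all genes tested. The groups did not overlap for 1 of the 10, where this held for 4.95% of all genes tested, and nothing is read from the count.

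Levels were corrected for length as CPM per kilobase of annotated exon, with the exons of all transcripts of a gene merged. The order depends on these lengths. For H2-K1 the length was 2938 bases, against 1619 in its longest protein-coding transcript, and for H2-T23 2889 against 1472. For B2m both were 860 bases. Levels by transcript length were not computed. By merged exons B2m was the highest of the 10 genes at 2801 ± 426 in Ex4 and 2472 ± 283 in PBS. H2-K1 followed at 1288 ± 155 in Ex4 and 1439 ± 191 in PBS, then H2-D1 at 424 ± 43.5 in Ex4 and 396 ± 54.9 in PBS, and H2-T23 at 190 ± 19.9 in Ex4 and 212 ± 26.1 in PBS. Tap1 came next at 53.5 ± 6.10 in Ex4 and 53.6 ± 7.34 in PBS. Cd1d1 stood below Tap1 in both groups, at 31.2 ± 2.65 in Ex4 and 15.6 ± 2.64 in PBS, and above Nlrc5, at 8.72 ± 0.375 in Ex4 and 9.40 ± 0.887 in PBS. With the merged lengths, no gene's range over the 8 libraries touched that of its neighbour down to Nlrc5. Below it Cd1d2, at 1.58 ± 0.873 in Ex4 and 0.669 ± 0.406 in PBS, and H2-T3, at 0.978 ± 0.636 in Ex4 and 1.02 ± 1.19 in PBS, overlapped each other and could not be ordered. The range of H2-T22, the lowest at 0.239 ± 0.0334 in Ex4 and 0.177 ± 0.102 in PBS, overlapped those of Cd1d2 and H2-T3.

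Ratios within a library do not depend on scaling. Per 1000 counts of B2m there were 38.3, 28.1, 28.6 and 40.8 counts of Cd1d1 in Ex4, against 19.8, 25.2, 17.1 and 14.4 in PBS. Per 1000 counts of H2-K1 there were 24.2, 15.8, 22.1 and 24.2 counts of Cd1d1 in Ex4, against 8.18, 10.6, 9.71 and 9.36 in PBS. Neither ratio overlapped between the groups, which follows in part from the choice of Cd1d1 in this contrast and adds no support to it. Among the heavy chains, H2-T23 kept nearly the same proportion to H2-K1, 14.5 ± 0.468 per 100 counts in Ex4 and 14.5 ± 0.687 in PBS. H2-D1 per 100 counts of H2-K1 was 29.6, 26.4, 32.3 and 27.9 in Ex4, against 23.8, 24.6, 23.7 and 24.4 in PBS. The 4 PBS libraries lay within 1 count of each other in this ratio, and all 4 Ex4 libraries lay above them. This ratio was picked out after its values were seen and comes from the same contrast, so no test is given. H2-K1 and H2-D1 transcripts were 90.7% identical over 1472 aligned bases. Of windows of 100 bases, 4.64% of those in H2-D1 and 0% of those in H2-K1 were shared with another gene, and of 200 bases 0% in either. How reads that fit more than 1 gene were counted is not given, and their part in this ratio was not tested. B2m per 100 counts of H2-K1 was 56.1 to 77.3 in Ex4 and 41.3 to 64.9 in PBS, and the groups overlapped.

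**Figure D2:**
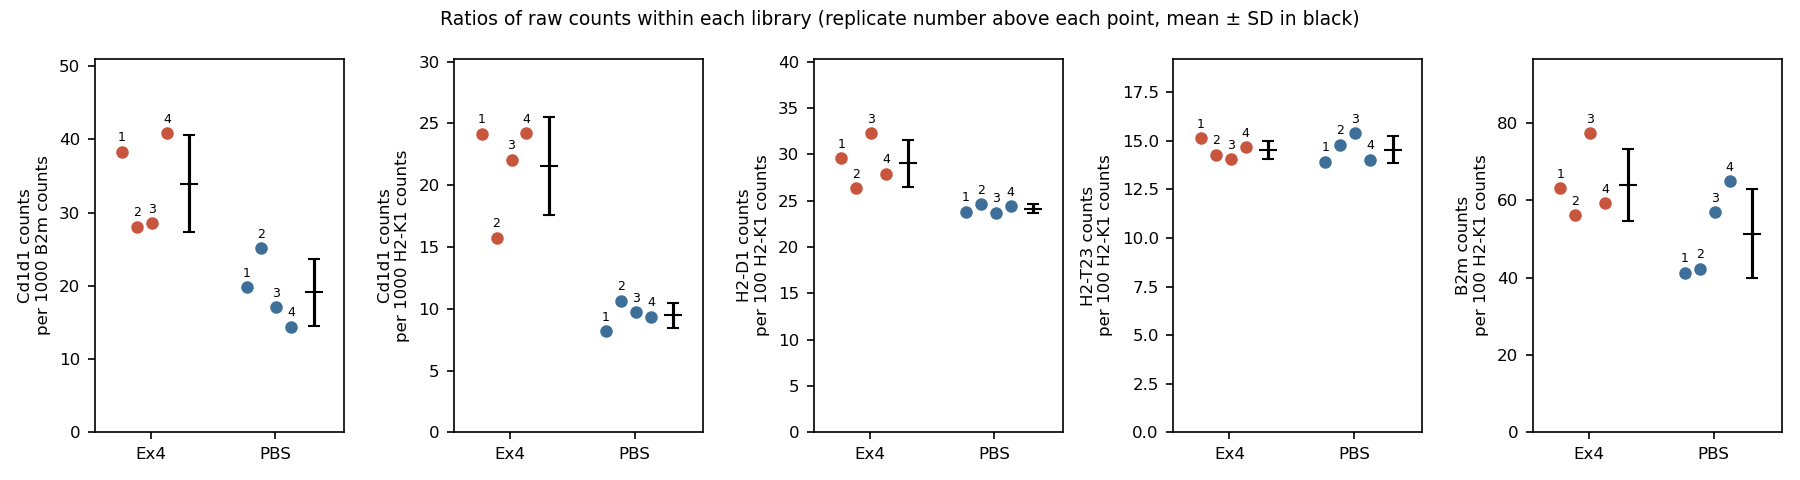
Ratios of raw counts between pairs of genes inside each library, on linear axes from 0. Points are libraries (red Ex4, blue PBS, replicate number above) and black bars are the mean ± SD of 4. Cd1d1 relative to B2m or H2-K1 and H2-D1 relative to H2-K1 are higher in every Ex4 library than in any PBS library, while H2-T23 relative to H2-K1 is 14.5 in both groups.

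Within the groups, H2-K1, H2-D1, H2-T23 and Tap1 varied together. With the group means subtracted from log2 CPM, Pearson's r over the 8 libraries was 0.95 between H2-K1 and H2-T23, 0.87 between H2-K1 and H2-D1, 0.92 between H2-D1 and Tap1 and 0.78 between H2-K1 and Tap1. B2m did not follow its heavy chains, with r of -0.06 for H2-K1 and 0.17 for H2-D1. The low-count genes ran otherwise: H2-T3 had r of -0.74 with H2-K1 and -0.84 with H2-D1, and H2-T22 had r of -0.50 with H2-K1 and -0.41 with H2-D1. Cd1d2 had r of 0.81 with H2-K1, 0.90 with H2-D1 and -0.92 with H2-T3. Cd1d1 had r between -0.39, with B2m, and 0.39, with H2-D1, over the other 9 genes, among them 0.17 with H2-K1 and 0.13 with Cd1d2. These values rest on 8 libraries that share scaling and depth, and are given as a description. The 5 genes with the highest r with H2-K1 among 11602 genes were Praf2 (0.98), Tnfrsf12a (0.97), Tapbpl (0.96), Psmb9 (0.96) and Ncf4 (0.96). Of these, Tapbpl encodes the peptide editor TAPBPR and Psmb9 a subunit of the immunoproteasome.

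Promoters of H2-K1, H2-D1 and B2m are shown because the products assemble into 1 complex while the light chain did not vary with the heavy chains. The sequences span 250 bases before to 50 after the annotated start (RefSeq, GRCm38.p6), and a promoter sequence was found for 7 of the 10 genes, not for Cd1d1, Cd1d2 or Nlrc5. Capitals mark each match of TGACG and of CCAAT on either strand. TGACG is the core of a cAMP response element and of the X2 box of class I promoters, and CCAAT that of the Y box. A match in capitals need not be such a box.
H2-K1, chr17:34000298-34000597, minus strand: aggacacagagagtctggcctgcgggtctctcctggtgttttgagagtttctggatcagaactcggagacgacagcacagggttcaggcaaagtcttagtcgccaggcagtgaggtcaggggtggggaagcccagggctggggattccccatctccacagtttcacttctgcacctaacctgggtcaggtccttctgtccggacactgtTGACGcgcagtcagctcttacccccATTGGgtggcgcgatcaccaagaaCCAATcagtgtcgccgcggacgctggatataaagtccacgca
H2-D1, chr17:35262844-35263143, plus strand: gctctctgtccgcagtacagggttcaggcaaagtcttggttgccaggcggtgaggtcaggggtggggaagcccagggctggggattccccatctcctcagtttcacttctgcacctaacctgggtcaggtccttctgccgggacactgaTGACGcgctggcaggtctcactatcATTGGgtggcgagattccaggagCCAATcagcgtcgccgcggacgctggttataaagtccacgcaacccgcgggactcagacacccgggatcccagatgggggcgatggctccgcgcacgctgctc
B2m, chr2:122147437-122147736, plus strand: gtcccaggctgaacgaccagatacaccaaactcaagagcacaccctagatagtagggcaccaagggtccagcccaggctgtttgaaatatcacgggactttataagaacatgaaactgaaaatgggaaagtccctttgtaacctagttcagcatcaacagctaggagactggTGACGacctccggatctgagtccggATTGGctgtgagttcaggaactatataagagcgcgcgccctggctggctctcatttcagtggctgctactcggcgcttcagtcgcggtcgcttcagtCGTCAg
In all 3 a TGACG was followed on the same strand by ATTGG, the reverse complement of CCAAT, with 25 bases from first base to first base. This spacing was looked for after it had been seen in these sequences, and 0.0962% of 27025 promoters, the first listed for each gene, held it. The share includes these 3 genes, which set the spacing, so nothing is read from it. TGACG alone was in 21.0% of those promoters and CCAAT in 37.9%. The full element TGACGTCA, present in 1.88% of promoters, was in none of the 7. The interferon response core, GAAA and after any 2 bases GAAA again, was in the promoters of B2m, H2-T22 and H2-T23 and in 3.49% of all, and TTCNNNGAA, present in 8.47% of all, was in none of the 7. A match is a run of letters and not a shown binding site. The letters are strict, so a promoter without a match, such as that of H2-K1 or H2-D1, may hold an interferon element that departs from them.

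Over the 8 libraries as a whole, the genes whose log2 CPM was most like that of Cd1d1 were Ndfip2 (r = 0.96), Dock5 (0.95), Flna (0.95), Rcn3 (0.95) and Cstad (0.95). All 5 were, like Cd1d1, higher in every Ex4 library than in any PBS library, as were 2.29% of all genes tested, and the choice by likeness to Cd1d1 favours such genes. Flna, which encodes the actin cross-linker filamin A, was the other gene past the edgeR threshold, with a log2 fold change of 1.58. Ndfip2, an adaptor of ubiquitin ligases, stood at 190.4 ± 19.9 CPM in Ex4 and 124.4 ± 16.9 CPM in PBS. With the group means subtracted the list was another, led by Cds2 (0.99), Mrps2 (0.97), Cdk1 (0.96), Ypel3 (0.95) and Pcsk4 (0.95).

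Among 114 tested genes of 8 further lists on antigen presentation, 0 passed the edgeR test in either direction, beside 0.0136% of all genes. At an unadjusted p under 0.05 there were 6 higher and 9 lower, beside 7.61% of all genes in either direction. DESeq2, an alternative test, called 2 of 112 of them, Klra7 higher and Cd8a lower, beside 0.533% of all genes. The groups did not overlap for 2 genes that were higher and 2 that were lower, beside 2.29% and 2.66% of all genes. The median log2 fold change over the 114 genes was -0.06, with 44 above 0 and 70 below, beside 0.02 over all genes. Of all 14691 genes tested 7767 were above 0 and 6924 below. Genes of a list can vary together between libraries, so nothing is read from these counts or from those of single lists.

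The other class I and class I-like genes had a median of -0.12 over 15 tested, with 11 below 0. H2-Q6 had the highest counted level of them at 625.8 ± 108 CPM in Ex4 and 739.2 ± 96 CPM in PBS, and H2-Q7 had 0 counts in all libraries. The check for shared sequence did not cover the H2-Q genes. How reads were divided among them was not tested, so the 0 of H2-Q7 does not show that it was silent. The smallest p-values belonged to Ulbp1, a ligand of the NKG2D receptor, at 4.07 ± 1.30 CPM in Ex4 and 8.11 ± 4.96 CPM in PBS, to H2-Q4 (log2 fold change -0.38) and to H2-Q10 (-0.49). Mr1, the molecule that presents vitamin B metabolites, stood at 7.92 ± 1.57 CPM in Ex4 and 6.01 ± 2.00 CPM in PBS. None of them passed.

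Genes of peptide supply and loading had 11 of 12 log2 fold changes below 0 and a median of -0.24. Pdia3, the disulfide isomerase of the loading complex, stood at 1117, 1376, 1333 and 1044 CPM in Ex4, against 1601, 1730, 1605 and 1529 CPM in PBS. It did not overlap between the groups but missed the threshold, with a log2 fold change of -0.41 (edgeR adjusted p = 0.468). Canx, the chaperone calnexin, stood at 692.3, 962.9, 1043 and 1288 CPM in Ex4, against 1841, 984.6, 1670 and 1614 CPM in PBS, and overlapped through PBS replicate 2 (-0.62, edgeR adjusted p = 0.477). Tapbpl was at 116.6 ± 22.3 CPM in Ex4 and 157.7 ± 41.7 CPM in PBS (-0.44, edgeR adjusted p = 0.615). Tap2, the partner of Tap1 in the transporter, stood at 230.6 ± 24.6 CPM in Ex4 and 253.1 ± 38.4 CPM in PBS. The immunoproteasome genes Psmb8, Psmb9 and Psmb10 had log2 fold changes of -0.26, 0.09 and -0.14.

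Of 17 transcriptional regulators of class I genes 11 had log2 fold changes above 0, and the median was 0.05. Irf1, an interferon-induced activator, stood at 247.1 ± 37.2 CPM in Ex4 and 275.9 ± 43.9 CPM in PBS, and Rfx5, which binds class I promoters with NLRC5, at 28.9 ± 5.71 CPM in Ex4 and 28.5 ± 2.55 CPM in PBS. Creb1, which encodes the cAMP response element binding protein, had a log2 fold change of 0.21 (SE 0.16). The smallest p-values were those of Nfya (-0.51), Prdm1 (0.35) and Nfkb1 (-0.25), and their edgeR adjusted p-values lay between 0.731 and 0.748.

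Interferon gamma targets had 12 of 16 log2 fold changes below 0 and a median of -0.21. Cxcl10, a chemokine gene, stood at 54.9 ± 19.9 CPM in Ex4 and 92.1 ± 30.2 CPM in PBS, with the smallest p of the list (log2 fold change -0.74, edgeR adjusted p = 0.564). The GTPase genes Gbp6 and Gbp5 had log2 fold changes of -0.32 and -0.36. Ifng itself stood at 61.0, 100.9, 125.7 and 73.5 CPM in Ex4, against 100.3, 112.1, 196.2 and 172.6 CPM in PBS, with a log2 fold change of -0.69 (edgeR adjusted p = 0.554).

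Of 20 genes for lipid loading and traffic of CD1d, 10 had log2 fold changes above 0 and 10 below, with the median at -0.0031. Mttp, whose product loads lipids onto CD1d, stood at 3.50, 7.34, 11.1 and 7.15 CPM in Ex4, against 8.52, 10.3, 26.8 and 12.3 CPM in PBS (-0.99, edgeR adjusted p = 0.564). Enterocytes express Mttp strongly, and its highest value fell in PBS replicate 3, the library with the highest epithelial sum; the part of epithelial cells in the Mttp values was not tested. Asah1, the acid ceramidase, stood at 45.8 ± 6.05 CPM in Ex4 and 63.2 ± 19 CPM in PBS, and Lipa, the lysosomal acid lipase, at 46.1 ± 7.47 CPM in Ex4 and 34.4 ± 7.31 CPM in PBS. The saposin precursor gene Psap, whose products exchange lipids on CD1d in lysosomes, had a log2 fold change of 0.08 (SE 0.17).

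On the side of the receptors, 13 of 15 listed genes were tested, with a median of -0.0053. Cd8a, whose product binds class I molecules and, as a homodimer, the thymus leukaemia antigen, stood at 952.8, 1219, 998.2 and 1070 CPM in Ex4, against 2074, 1513, 1363 and 1450 CPM in PBS. Klrd1, which encodes the CD94 chain that recognises Qa-1, stood at 519.9, 566.0, 553.7 and 503.2 CPM in Ex4, against 392.9, 393.2, 442.1 and 438.3 CPM in PBS. Klra7, an inhibitory receptor for classical class I, stood at 41.5, 44.3, 48.5 and 37.0 CPM in Ex4, against 16.4, 29.3, 27.9 and 26.3 CPM in PBS. The groups did not overlap for these 3 of the 13 genes, beside 4.95% of all genes tested, with log2 fold changes of -0.59, 0.36 and 0.78, and none passed the edgeR test (adjusted p = 0.351, 0.466 and 0.31). Klrc1, which encodes NKG2A, the partner of CD94, stood at 27.1 ± 11.8 CPM in Ex4 and 28.1 ± 5.08 CPM in PBS.

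**Figure D3:**
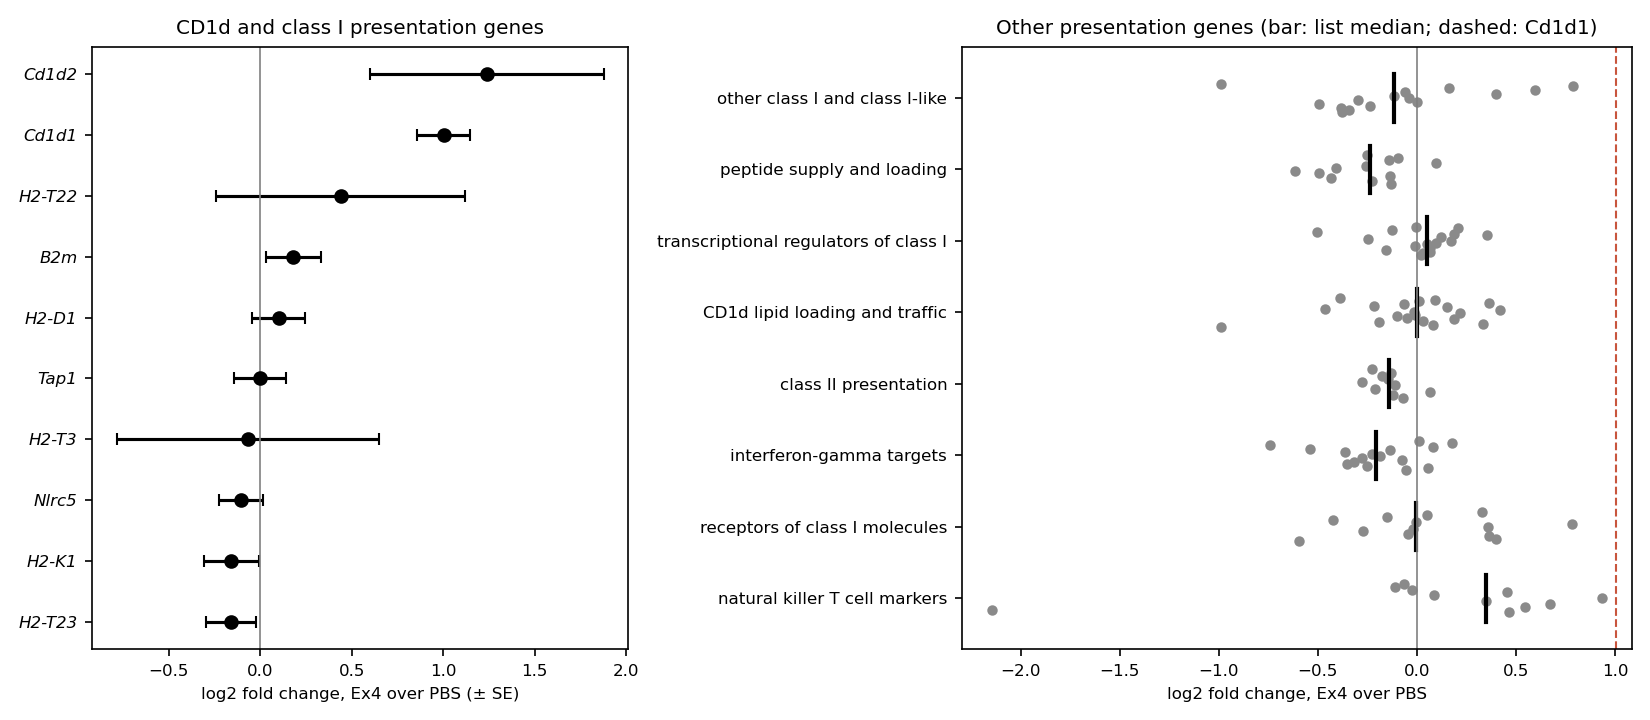
Left, log2 fold changes of the 10 genes, Ex4 over PBS, with SE bars from the edgeR fit. Right, log2 fold changes of the tested genes of 8 presentation lists (grey points), their medians (black bars) and the value of Cd1d1, 1.00, as a dashed line. All 114 listed genes lie to the left of Cd1d1, Klrb1c farthest at -2.14, and list medians run from -0.24 to 0.35.

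B cells, macrophages, dendritic cells and epithelium also express Cd1d1, and in a bulk library fewer cells of a type and less RNA per cell cannot be told apart. B cell markers had a lower mean in Ex4 for all 11, with sums of 296.2, 890.1, 2294 and 489.8 CPM in Ex4, against 1497, 997.6, 1114 and 921.7 CPM in PBS. The plasma cell gene Jchain made up much of these sums, with 145.6, 585.0, 1762 and 156.8 CPM in Ex4, against 1304, 617.4, 511.3 and 637.7 CPM in PBS. As a mean of log2 CPM, in which each marker weighs the same, the B cell score was 3.88, 4.93, 5.79 and 5.00 in Ex4, against 4.33, 5.21, 5.97 and 4.94 in PBS, so that PBS replicate 1 was highest of the PBS libraries by sum and lowest by score. The scores, not the sums, entered the edgeR fits. Markers of macrophages, monocytes and dendritic cells had a higher mean in Ex4 for 6 of 15, with sums from 135.5 to 217.3 CPM in Ex4 and from 134.1 to 261.8 CPM in PBS. Epithelial markers had a higher mean in Ex4 for 1 of 19, with sums of 344.5, 781.9, 663.5 and 706.6 CPM in Ex4, against 661.9, 696.6, 1513 and 904.6 CPM in PBS. Their median log2 fold change was -0.63. At an unadjusted p under 0.05 in edgeR 4 of the 19 were lower and 0 higher, beside 573 lower and 545 higher of 14691 genes tested. By adjusted p 0 of them were called. Ex4 replicate 1, with the lowest B cell and epithelial sums of the 8 libraries, held 84.0 CPM of Cd1d1. With each marker score as a term in the edgeR fit, the log2 fold change of Cd1d1 was 1.00 for B cells (adjusted p = 0.116), 1.005 for macrophages, monocytes and dendritic cells (adjusted p = 0.0245) and 0.93 for epithelium (adjusted p = 0.228). The part of other cells in the Cd1d1 level was not tested beyond these values.

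**Figure D4:**
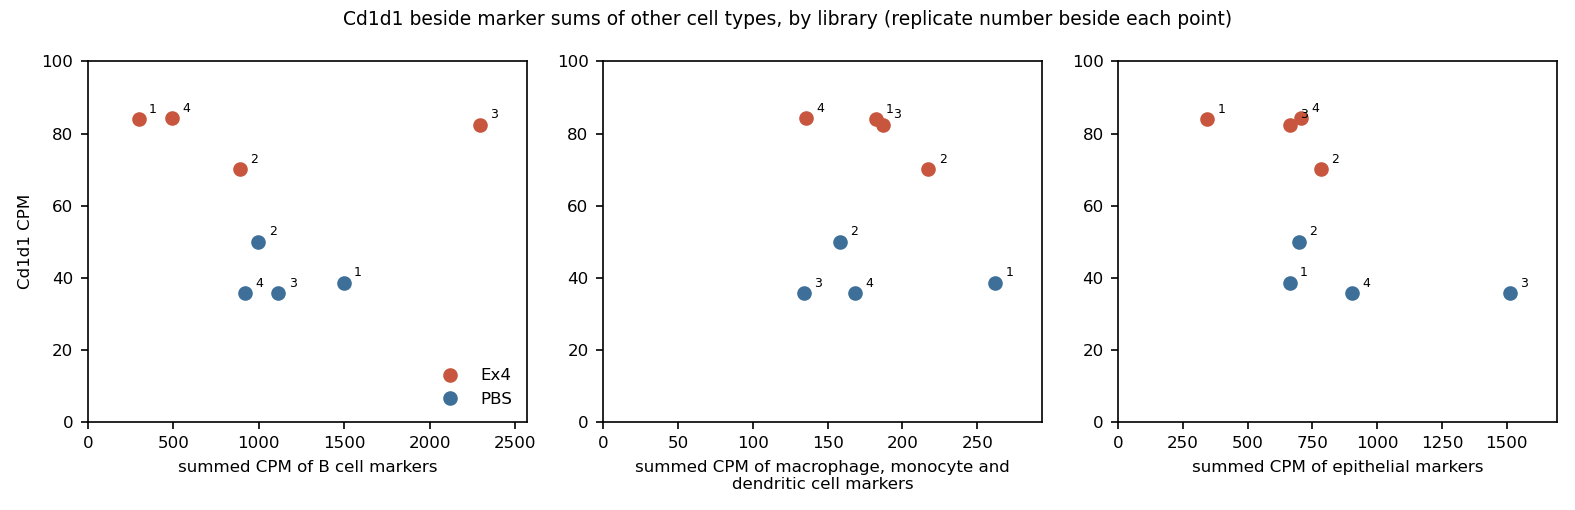
Cd1d1 level in CPM (vertical axis) against the summed CPM of B cell markers, of macrophage, monocyte and dendritic cell markers and of epithelial markers (horizontal axes, all from 0), 1 point per library, red for Ex4 and blue for PBS, with replicate numbers. Ex4 libraries lie at 70.0 to 84.2 CPM of Cd1d1 over B cell sums from 296.2 to 2294 CPM, of which Jchain gave 145.6 and 1762 CPM.

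Over 24 alternative settings, described with the processing, the log2 fold change of Cd1d1 lay between 0.91 and 1.11, and 11 of them kept it past the threshold. The adjusted p ran from 1.26e-05 with DESeq2 to 0.313 with the replicate number as a block in edgeR. Taking the mice by their label numbers, which ran from 3 to 6 for 4 of them and from 11 to 19 for the others, the difference in log2 CPM was 0.80 in the lower run and 1.22 in the higher one, with 2 mice of each group in each.

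**Figure D5:**
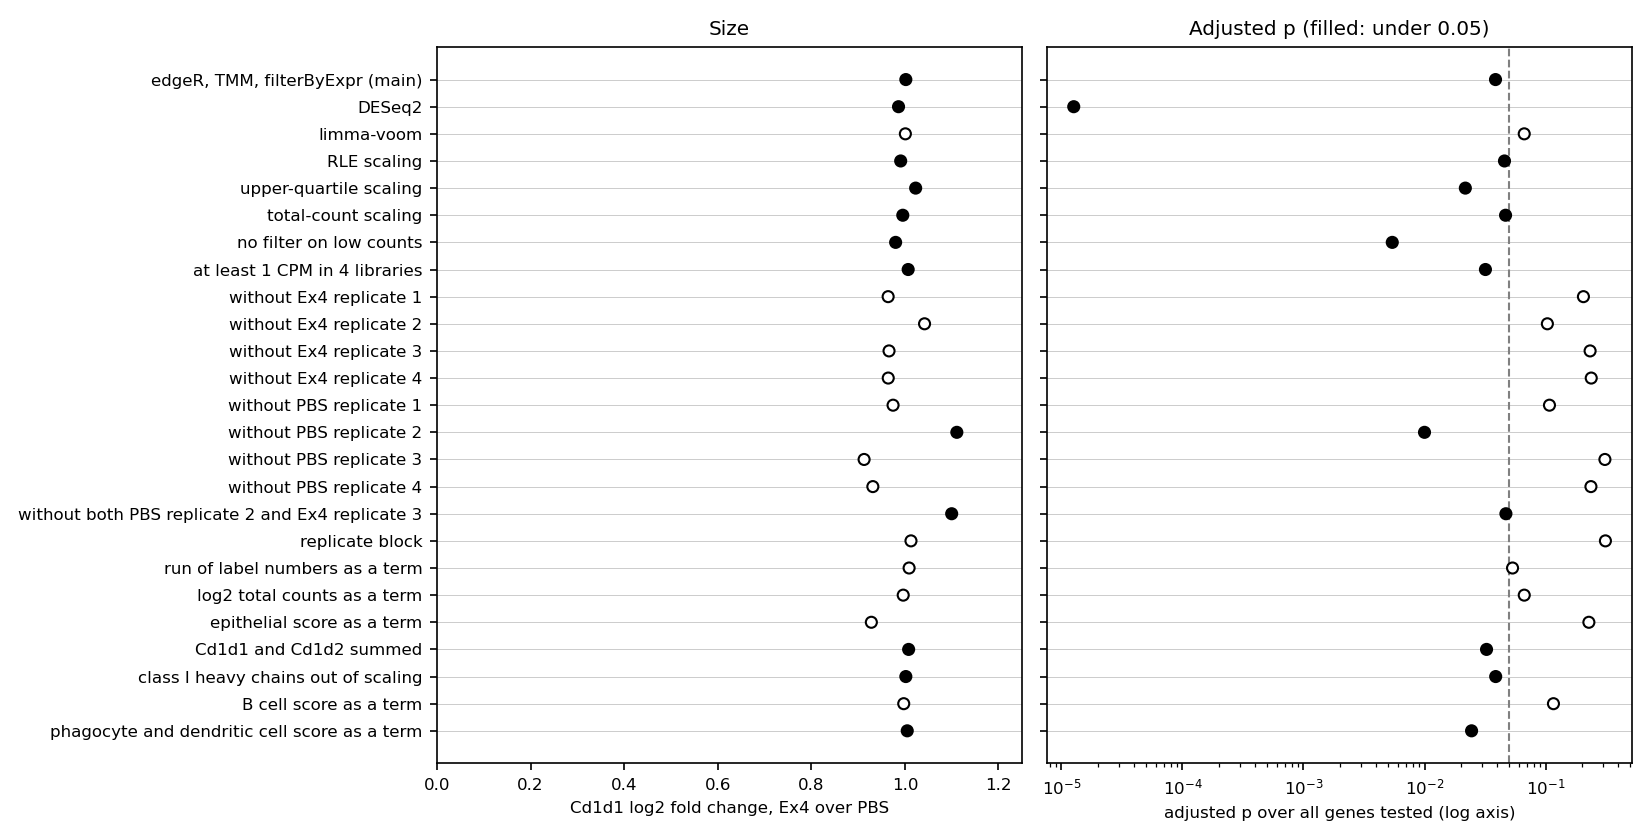
Cd1d1 under the main fit and 24 alternatives. Left, log2 fold change, Ex4 over PBS, on an axis from 0. Right, adjusted p over all genes tested on a log axis, with the threshold of 0.05 dashed. Filled points are under the threshold. The size stays between 0.91 and 1.11 while the adjusted p crosses the threshold.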

How the data were processed

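RNA of CD45-sorted gut IELs was made into strand-specific TruSeq mRNA libraries and read in pairs of 200 bases, per the labels and the design text. The authors deposited raw counts by gene symbol, whole and not normalised, for 8 mice. The submitters' processing notes name STAR 2.7.9a, DESeq2 and mm10 and say nothing of their use. Which counter, annotation and strand setting were used is not given in the sources used here. All 8 columns were matched by description, and 0 were unused. Replicates differed by more than sampling noise (mean chi-square per gene of 22.12 to 82.75).

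The fit used edgeR 4.0.16 under R 4.3.3, with low genes removed by filterByExpr, TMM factors and the robust quasi-likelihood F test of Ex4 against PBS, Benjamini-Hochberg adjustment over 14691 genes, threshold 0.05. SEs came from the log2 fold change and its F statistic, and 95% intervals from those SEs. The fit was tested on simulated data. Log2 CPM used a prior count of 2. Exon lengths and coordinates came from GENCODE vM21. Alternatives were DESeq2 1.42.0, limma-voom (limma 3.58.1), other scalings, filters, terms and features, and libraries left out. The B cell and the macrophage, monocyte and dendritic cell terms were added after seeing the data. Members and lists were chosen with earlier results of these data known. Named list genes were a few set by name and the 3 with the smallest p in each list. Genes named outside that rule for their role or level, such as H2-Q6, H2-Q7, Mr1, Tap2, Psmb8, Psmb10, Creb1 and Psap, were chosen after their values were seen. Figures used Python 3.11.15 and matplotlib 3.10.9.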

Additional observations from a re-analysis of the deposited data

Results flagged for a closer look

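In each group of 4 libraries, the gap from the highest or lowest log2 CPM to its neighbour was set against the spread of all 4 for the genes named by rule and for the marker scores. Dixon's ratio of the gap to the range passed its 95% limit for 4 samples in 7 of 94 groups, and chance flags about 1 in 20. Cd1d1 was low in Ex4 replicate 2 at 6.13, against 6.37 for its nearest neighbour, and H2-T23 was high in the same library at 9.31, against 9.04. In Ex4 replicate 4, Asah1 was low at 5.20 and H2-Q10 at 2.94. H2-DMa, a class II peptide exchanger, was low in PBS replicate 4 at 6.27. In PBS replicate 1, Klrb1c was high at 6.67, against 3.24 for its neighbour, and so was the mast cell marker score, at 3.81 against 2.14.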

How the results depend on the processing

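Precision was limited by 4 mice a group, and for Cd1d2, H2-T3 and H2-T22 by counts as low as 5 a library. Of all genes tested 2 were called. The count was 70 with DESeq2 (40 higher, 30 lower), 8 without a filter on low counts, 9 with the macrophage, monocyte and dendritic cell score, and 1 each with limma-voom, the replicate block, the run of label numbers, the epithelial score and the B cell score. Leaving out 1 library gave 1 to 14, the 14 without PBS replicate 2. Presentation genes called were 2 with DESeq2 and 0 otherwise (0 in each fit with 1 library left out). Cd1d1 missed the threshold at a log2 fold change of 1.00 with limma-voom (adjusted p = 0.0667), 1.01 with the replicate block (0.313), 1.01 with the run (0.0534), 1.00 with log2 total counts (0.0667), 0.93 with the epithelial score and 1.00 with the B cell score, and ran from 0.91 to 1.11 with 1 library left out.

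Replicate numbers were not taken as pairs in the main fit. Same-numbered libraries correlated at 0.09, -0.027, -0.235 and 0.144 in their deviations from the group means. Libraries of unlike number correlated at -0.335 to 0.361. With so few libraries these values cannot settle whether the mice were paired, and the labels share only the numbers. H2-T3 changed sign to 0.16 with limma-voom, 0.42 with the replicate block, 0.23 with the run, 0.093 with log2 total counts, 0.85 with the epithelial score, 0.25 with the B cell score and 0.11 with the macrophage, monocyte and dendritic cell score, and ran from -0.42 to 1.16 with 1 library left out. Tap1 changed sign to 0.00083 with limma-voom, 0.00060 with the block, 0.0074 with the run, 0.0095 with upper-quartile scaling and 0.0012 with the 1 CPM filter, and ran from -0.094 to 0.060 with 1 library left out. H2-D1 ran from -0.0099 to 0.15 with 1 library left out. The cause was not tested. Cd1d2, H2-K1, B2m, H2-T22, H2-T23 and Nlrc5 kept their direction in every alternative that gave a value and were called in none. Scaling by RLE, upper quartiles or total counts moved the median of all genes by -0.0103, 0.0148 and -0.0122 on the log2 scale.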

Other observations

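Class II genes, which show peptides to CD4 T cells, had 9 of 10 log2 fold changes below 0 and a median of -0.14, and 0 were called. H2-Ab1 stood at 993.9 ± 305 CPM in Ex4 and 1080 ± 313 CPM in PBS, and the invariant chain gene Cd74 at 1806 ± 615 CPM in Ex4 and 1980 ± 451 CPM in PBS. Ciita, the class II transactivator, stood at 19.9 ± 9.35 CPM in Ex4 and 23.2 ± 10.9 CPM in PBS. H2-DMa, H2-DMb2 and Ciita had the smallest p-values of that list, with log2 fold changes of -0.21, -0.28 and -0.23. B cells carry these genes. B cell markers had lower means in Ex4 for 11 of 11, with a median log2 fold change of -0.21 and 0 at an unadjusted p under 0.05 in edgeR, and the part of B cells in the class II values was not tested.

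Of the listed markers of natural killer T cells, the cells that see CD1d, 7 of 11 had log2 fold changes above 0 (median 0.35), and 0 were called. The 4 below 0 were Klrb1c, Cxcr6 (-0.11), Il2rb (-0.07) and Tbx21 (-0.02). Cxcr6 was the most abundant of the list, at 1274 ± 202 CPM in Ex4 and 1376 ± 330 CPM in PBS. How far the listed genes report natural killer T cells among these IELs was not tested. Zbtb16, the defining transcription factor, stood at 5.22 ± 1.80 CPM in Ex4 and 3.77 ± 0.605 CPM in PBS. Slamf1 stood at 29.6, 19.3, 39.3 and 20.2 CPM in Ex4, against 11.6, 19.96, 18.6 and 18.0 CPM in PBS (log2 fold change 0.67, edgeR adjusted p = 0.524), and Sh2d1a at 4.36 ± 2.42 CPM in Ex4 and 2.28 ± 1.70 CPM in PBS. Klrb1c, which encodes NK1.1, stood at 3.72, 9.56, 9.87 and 5.24 CPM in Ex4, against 101.9, 9.34, 7.54 and 7.54 CPM in PBS, so that its log2 fold change of -2.14 (edgeR adjusted p = 0.686) rests on PBS replicate 1.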
